A study of Mus musculus with 6 samples.

Results

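The Id genes, Id1, Id2, Id3 and Id4, encode inhibitors of DNA binding, small helix-loop-helix proteins, and they were followed here in neurospheres grown from mouse hippocampus. They were chosen by name, as the probe sets whose only gene symbol was Id1, Id2, Id3 or Id4. Each gene had 1 such probe set, so 4 of 21640 probe sets with a single symbol, and 4 of 19937 genes, are described. The cells came from the hippocampus of male C57BL/6J mice aged 8 to 12 weeks and were grown in medium with EGF and bFGF, growth factors that both groups received. In 1 group of 3 samples the medium also held 10 µM norepinephrine, a monoamine transmitter, and in the other group of 3 samples it held 15 mM potassium chloride (KCl), which depolarises excitable cells. Primary neurospheres, floating colonies formed by dividing neural precursors, were collected on day 14. The titles of all 6 samples describe them as big neurospheres, without saying how size was judged, and RNA of each sample was measured on 1 array. Without untreated samples in the comparison, a difference, given throughout as norepinephrine minus KCl, cannot be assigned to either treatment alone. The labels speak of biological replicates but do not say whether they are separate animals or cultures, so p-values cover only the spread between these samples, which may be technical.

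Id proteins have a helix-loop-helix domain for pairing but lack the basic region that grips DNA. They bind E proteins, the common partners of tissue-specific basic helix-loop-helix (bHLH) factors, and keep the proneural factors from forming active pairs, so that precursors stay undifferentiated. Bone morphogenetic proteins (BMPs), acting through Smad1, Smad5 and Smad4, are classic inducers of Id genes. In the nervous system Id1 and Id3 together hold back premature neuronal differentiation, Id2 also binds the retinoblastoma protein, and Id4 is linked to the quiescence of adult hippocampal stem cells.

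Promoter sequence was taken from RefSeq (GRCm38.p6) as the 250 bases before the gene start, which was matched for 3 of the 4 genes, Id2, Id3 and Id4. All 3 matched windows are shown, and they are written 5′ to 3′ on the strand of the gene. Of these genes, Id2 and Id3 were those whose treatment groups did not overlap. Capitals mark matches, on either strand, to CCAAT (the CCAAT box), GGCGCC (a GC-rich Smad element), CANNTG (the E-box, the site of bHLH pairs) and TGACG (the core of the cAMP response element).
Id2, chr12:25096093-25096342, minus strand: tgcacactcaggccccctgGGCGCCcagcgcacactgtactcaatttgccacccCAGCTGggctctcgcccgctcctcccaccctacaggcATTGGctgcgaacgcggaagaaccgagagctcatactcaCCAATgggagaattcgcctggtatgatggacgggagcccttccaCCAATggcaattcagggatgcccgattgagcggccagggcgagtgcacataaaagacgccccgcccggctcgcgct
Id3, chr4:136143572-136143821, plus strand: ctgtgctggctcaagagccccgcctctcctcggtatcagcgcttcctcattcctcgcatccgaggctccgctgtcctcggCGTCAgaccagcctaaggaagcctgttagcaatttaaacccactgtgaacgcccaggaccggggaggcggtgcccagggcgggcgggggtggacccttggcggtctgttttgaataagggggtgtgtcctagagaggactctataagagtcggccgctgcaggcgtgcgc
Id4, chr13:48260866-48261115, plus strand: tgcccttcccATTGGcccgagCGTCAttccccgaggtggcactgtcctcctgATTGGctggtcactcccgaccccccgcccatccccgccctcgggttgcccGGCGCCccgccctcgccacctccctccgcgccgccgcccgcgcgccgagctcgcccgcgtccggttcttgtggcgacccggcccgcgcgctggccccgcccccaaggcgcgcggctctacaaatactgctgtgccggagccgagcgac
The Id2 window held 3 CCAAT matches, starting 159, 120 and 76 bases before the gene start, 1 GGCGCC match and 1 E-box match, CAGCTG. Among 32851 RefSeq windows of the same length, 2.79% held 3 or more CCAAT matches, 9.59% held GGCGCC and 66.2% held an E-box. The Id3 window held 1 TGACG match, on the opposite strand 170 to 166 bases before the start, and TGACG was present in 17.8% of windows. In the Id4 window there were 2 CCAAT matches, which 10.1% of windows matched or exceeded, with 1 GGCGCC and 1 TGACG match. The whole cAMP element TGACGTCA, the palindromic Smad element GTCTAGAC and CACGTG, which is also an E-box, were not in these 3 windows, and they were in 1.55%, 0.167% and 6.02% of all windows. Of the bases, 62.8% were G or C for Id2, 62.8% for Id3 and 75.6% for Id4, against a median of 52.4%. These matches describe letters only and are not evidence of binding.

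Id3 had the largest difference of the 4 genes. Its log2 expression values (probe set 10509163) were 8.54, 7.86 and 7.87 on norepinephrine replicates 1, 2 and 3, and 7.22, 7.59 and 7.18 on the KCl replicates. All norepinephrine arrays lay above all KCl arrays, the nearest pair being 0.27 apart, and norepinephrine replicate 1 stood above the other 2 of its group. The means were 8.09 ± 0.39 and 7.33 ± 0.23 (SD, n = 3 per group), a log2 difference of 0.76 ± 0.24 (SE), or 1.69-fold. The 95% interval of the difference ran from 0.20 to 1.32.

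Id2 came next, on probe set 10399691. It read 8.82, 8.80 and 8.97 with norepinephrine and 7.65, 8.71 and 8.15 with KCl. The norepinephrine arrays were close together and again lay above all KCl arrays, but KCl replicate 2 was only 0.086 below the lowest of them. KCl replicate 1 was the lowest array, and the KCl values spanned 1.05 log2 units against 0.18 with norepinephrine. The means were 8.86 ± 0.10 and 8.17 ± 0.53 (SD, n = 3 per group), and the difference was 0.69 ± 0.27 (SE), or 1.61-fold, with a 95% interval from 0.077 to 1.30.

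Id1, on probe set 10477169, gave 7.33, 7.29 and 7.20 with norepinephrine and 7.36, 6.93 and 7.19 with KCl. The groups overlapped, since KCl replicate 1 held the highest value and KCl replicate 2 the lowest. The difference of 0.11 ± 0.19 (SE) had a 95% interval from -0.32 to 0.55, so a change of up to 0.55 log2 units toward norepinephrine was not excluded by these arrays.

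Id4 was the 1 member with a lower mean under norepinephrine. On probe set 10404975 the values were 6.99, 6.93 and 7.10 with norepinephrine and 7.50, 7.01 and 7.13 with KCl. The groups overlapped, with KCl replicate 1 above all other arrays and the other 5 arrays within 6.93 and 7.13. The difference was -0.21 ± 0.20 (SE), with a 95% interval from -0.66 to 0.25.

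**Figure D1:**
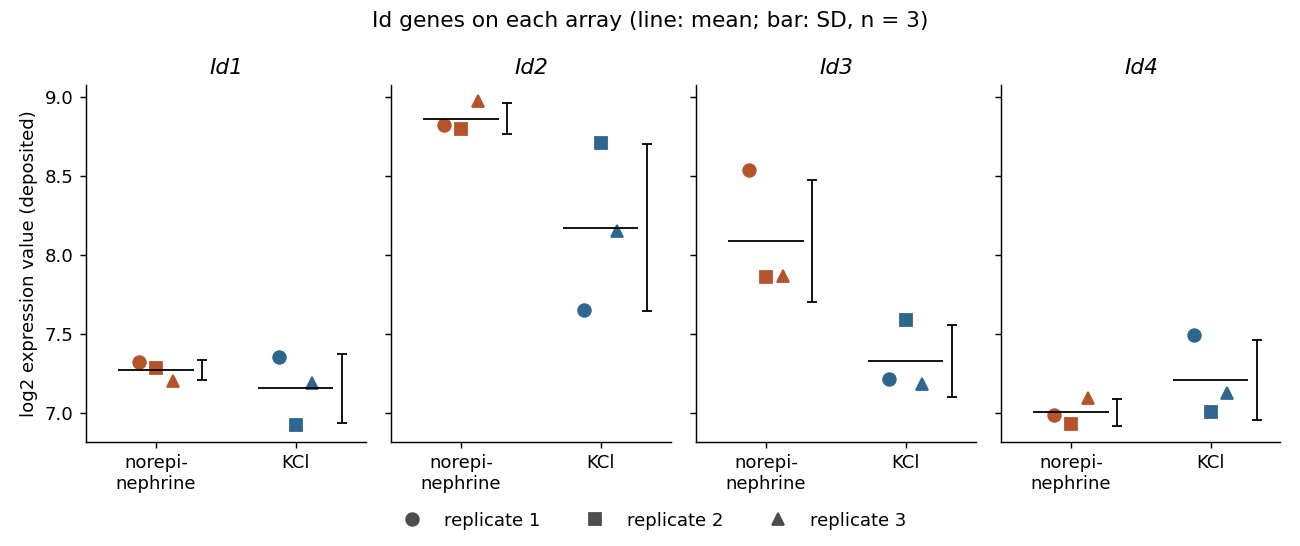
Deposited log2 expression values of Id1, Id2, Id3 and Id4 (vertical axis) on each of 3 norepinephrine and 3 KCl arrays, with marker shape for the replicate number, a line at the group mean and a bar of 1 SD beside it. Norepinephrine arrays lie above all KCl arrays for Id2 and Id3, by 0.086 and 0.27 log2 units, and overlap them for Id1 and Id4. Levels of different genes come from different probes and are not comparable.

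No Id gene passed. By limma, with Benjamini-Hochberg adjustment over all 21640 probe sets, the adjusted p was 0.939 for each of the 4 genes, and 0 of 4 passed an adjusted p under 0.05. Over all probe sets 0 passed (0%), while 743 (3.43%) had an unadjusted p under 0.05. At that unadjusted level stood Id3 (0.013) and Id2 (0.031), both higher with norepinephrine, where 2.2% of all probe sets stood in that direction and 1.24% in the other. Id1 and Id4 had unadjusted p of 0.567 and 0.329 by limma. In a two-sided exact permutation test of each gene's own values, where 3 arrays against 3 can give no p below 0.1, p was 0.1 for Id2 and Id3, 0.2 for Id4 and 0.6 for Id1. The norepinephrine arrays lay wholly above the KCl arrays for 2 of the 4 genes and for 4.36% of all probe sets, and wholly below them for 0 of the 4 and for 4.77%. A larger difference toward norepinephrine was found in 458 probe sets (2.12%) for Id3 and 606 (2.80%) for Id2, and in 25.2% for Id1.

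Array KCl replicate 1 stood apart from the other 5. Its values spread less, with an SD of 1.38 log2 units over all probe sets against 1.62 to 1.78, so that bright probe sets read low on it and dim ones high. The median difference over all probe sets was -0.075, or 0.0083 without that array. Within the tenth of all probe sets, ordered by brightness, that held each gene, it was 0.14 for Id2, 0.017 for Id3, -0.063 for Id1 and -0.11 for Id4, and between -0.028 and 0.023 without KCl replicate 1. Id2 was lowest and Id1 and Id4 highest on this array. Leaving it out gave differences of 0.43 for Id2, 0.70 for Id3, 0.21 for Id1 and -0.063 for Id4. By limma 0 of these 4 and 4 of all probe sets (0.0185%) then passed, and the lowest adjusted p of an Id gene was 0.888, for Id3. The Id3 difference was thus of similar size with and without this array, whereas that of Id2 was 1.61-fold with it and 1.35-fold without it.

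Other single arrays also moved the values. Without norepinephrine replicate 1, the highest array for Id3, its difference was 0.54, with a 95% interval from -0.043 to 1.11. Without KCl replicate 2, the differences were 0.96 for Id2, 0.89 for Id3, -0.31 for Id4 and -0.0018 for Id1, so that the sign of Id1 rested on that array. Over the 6 ways of leaving out 1 array, Id3 ranged from 0.54 to 0.89, Id2 from 0.43 to 0.96, Id1 from -0.0018 to 0.21 and Id4 from -0.31 to -0.063. The 95% interval of Id2 included 0 in each of these except without KCl replicate 2. That of Id3 included 0 without norepinephrine replicate 1 and without KCl replicate 3.

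**Figure D2:**
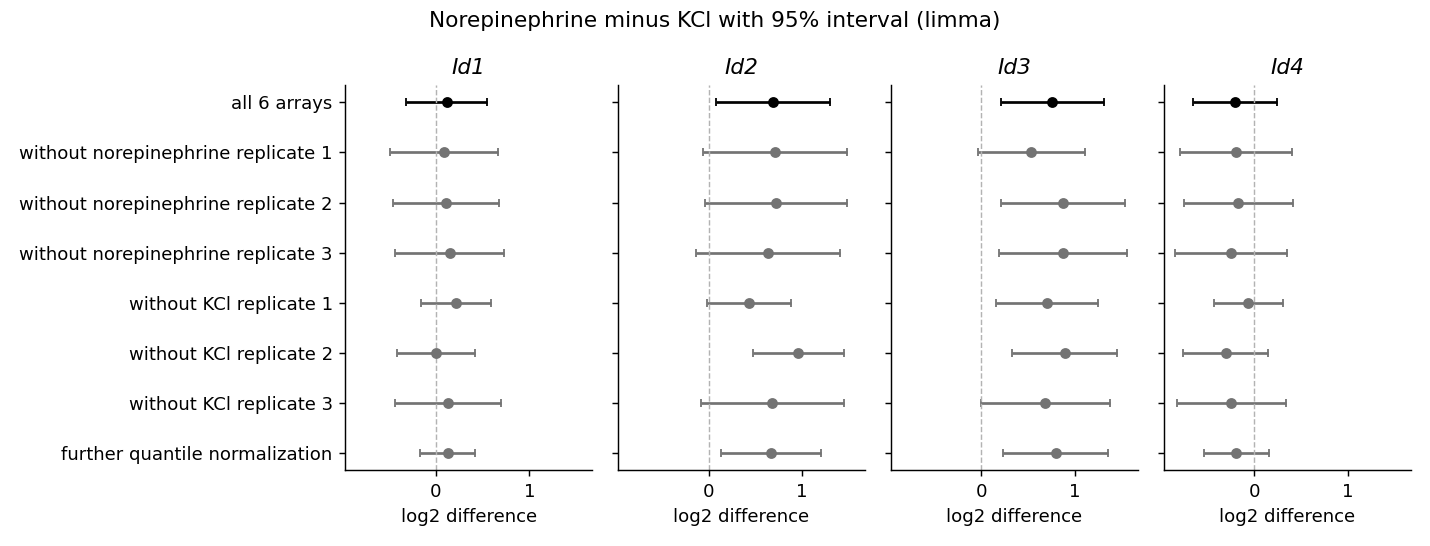
Log2 difference, norepinephrine minus KCl, with its 95% interval from limma (horizontal axis) for each Id gene with all 6 arrays, with each array left out and after a further quantile normalization (rows). The points of Id2 and Id3 stay above 0 in every row, between 0.43 and 0.96 and between 0.54 and 0.89, while the intervals of Id1 and Id4 span 0 in every row.

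**Figure D3:**
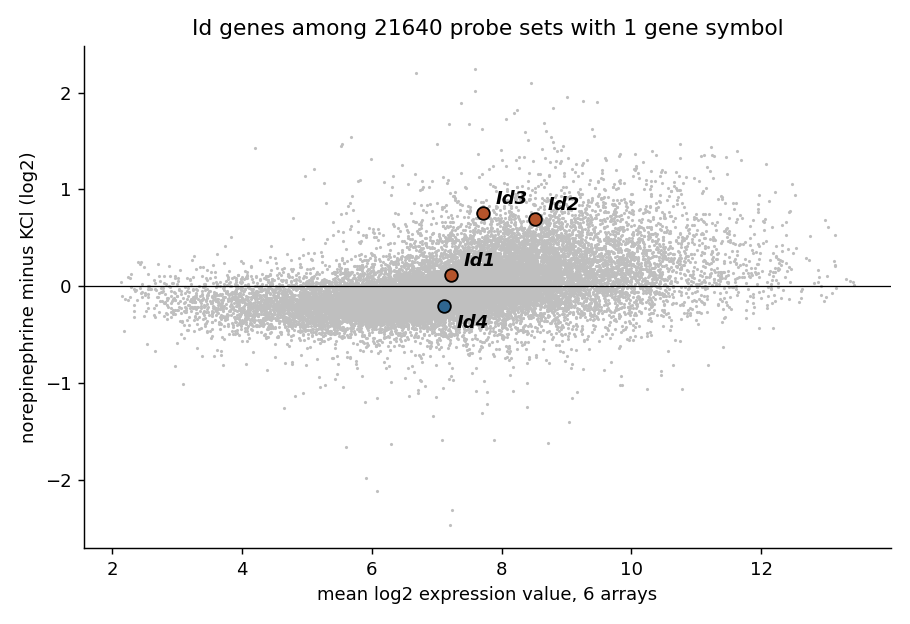
Difference between treatments (vertical axis, log2) against the mean log2 value over 6 arrays (horizontal axis) for 21640 probe sets in grey, with the 4 Id genes as large points, orange above 0 and blue below. Id3 at 0.76 and Id2 at 0.69 lie in the upper part of the cloud, Id1 and Id4 inside it, and bright probe sets lie higher than dim ones.

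Whether the treatment difference was unequal between Id genes was asked by taking, on each array, 1 gene's log2 value minus another's. Of the 6 pairs, 3 gave groups that did not overlap, and each of them involved Id4. The treatment difference of Id3 exceeded that of Id4 by 0.97, that of Id2 exceeded that of Id4 by 0.90, and that of Id1 exceeded that of Id4 by 0.32. These 3 values were 0.77, 0.49 and 0.28 when KCl replicate 1 was left out. For each of these 3 pairs the two-sided exact permutation p was 0.1, the smallest this design gives, and 0.2 after Benjamini-Hochberg adjustment over the 6 pairs. Id2 and Id3 differed from each other by -0.069 (exact permutation p = 0.6, adjusted 0.6). On the arrays, the value of Id2 minus Id3 varied with an SD of 0.43 within the norepinephrine group and 0.36 within the KCl group, so a moderate inequality between them was not detectable. Id1 stood 0.58 below Id2 and 0.65 below Id3 in treatment difference (exact permutation p = 0.4 and 0.2, adjusted 0.48 and 0.3). Id1 minus Id2 was -0.22 without KCl replicate 1 and -0.96 without KCl replicate 2.

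The profiles of the 4 genes over the 6 arrays were set against those of 13010 other genes by the root mean square difference of profiles centred on their own means. The genes most like Id3 were Med28, a subunit of the Mediator complex, at 0.10 log2 units, and Atp5k and Ndufb7, subunits of ATP synthase and of respiratory complex I, at 0.135 each. Gtpbp8, Osgepl1 and the peroxisomal transporter Abcd2 were the nearest to Id2, at 0.088, 0.091 and 0.098. All 3 were lowest on KCl replicate 1, as Id2 was, which their choice by likeness to Id2 favours. Prickle3, Disp1 and the purine salvage enzyme Aprt, at 0.036 to 0.037, lay nearest to Id1, and Stard10, the histone gene H2bc18 and Cfap157, at 0.024 to 0.032, nearest to Id4. Within the family, Id2 and Id3 were 0.33 apart, and Id2 was number 517 in the order of likeness to Id3. The other pairs were 0.19 (Id1 and Id4) to 0.63 (Id2 and Id4) apart. With 6 arrays many profiles come close by their number alone, and these distances are descriptions.

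The binding partners of Id proteins were read next. All 3 E proteins, Tcf3 (which encodes E12 and E47), Tcf4 and Tcf12, had overlapping groups. Tcf4 read 10.98, 11.28 and 11.13 with norepinephrine and 10.07, 11.19 and 11.13 with KCl, so that only KCl replicate 1 was low. The differences were 0.33 ± 0.30 (SE) for Tcf4, 0.17 ± 0.33 for Tcf12 and 0.070 ± 0.22 for Tcf3. Without KCl replicate 1 they were -0.035, -0.24 and 0.030, so that the direction of Tcf4 and Tcf12 turned with that array. After a further quantile normalization Tcf4 stood at 0.12, and Tcf12 and Tcf3 at -0.028 and -0.044.

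For neural bHLH factors that pair with E proteins, 12 genes measured under a single symbol were read. On 6 arrays 2 of the 12 were higher with norepinephrine and 10 lower, with a median difference of -0.15, where 38% of all probe sets were higher. Without KCl replicate 1, 5 were higher, with a median of -0.014, where 52.2% of all probe sets were higher. No member passed, and 0 of 12 had an unadjusted p under 0.05 by limma. The oligodendrocyte factors Olig1 and Olig2 stood at -0.11 ± 0.26 and -0.18 ± 0.18 (SE), and the proneural factors Neurog1 and Neurog2 at 0.058 ± 0.26 and -0.095 ± 0.23. Neurod6, a factor of differentiating neurons, and Olig3 had the smallest p of the list, with differences of -0.27 ± 0.18 and -0.30 ± 0.22. Against 4.36% of all probe sets wholly higher and 4.77% wholly lower with norepinephrine, Neurod6 was the 1 member of 12 whose groups did not overlap. Its values were very low, 3.29, 3.32 and 3.19 with norepinephrine and 3.68, 3.56 and 3.39 with KCl, where array medians were 7.03 to 7.28. Without a detection call, they cannot be told from background signal.

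Hes and Hey proteins are bHLH repressors of the Notch pathway, and Id proteins can pair with Hes1. Of 8 measured members, 2 were higher with norepinephrine and 6 lower, and the median was -0.071. With KCl replicate 1 left out, 5 of the 8 were higher and the median was 0.047. Hey2 read 6.22, 6.24 and 6.47 with norepinephrine and 5.72, 5.61 and 5.95 with KCl. Its groups did not overlap, and the difference was 0.55 ± 0.19 (SE), 0.53 without KCl replicate 1, with an unadjusted p of 0.019 by limma. Hey2 lay below the 30th percentile of brightness, and there was no detection call. Hes1 read 7.52, 7.48 and 7.20 against 7.74, 7.93 and 7.65. Its groups also did not overlap, in the opposite direction, at -0.38 ± 0.19. Neither passed over all genes (limma, adjusted p = 0.939 for both). Over all probe sets, norepinephrine arrays lay wholly above KCl arrays in 4.36% and wholly below them in 4.77%.

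The cell cycle inhibitors and Rap1gap, a Rap1 inactivator that Id proteins hold down in neural stem cells, were taken as genes that E proteins can switch on. Of the 5, 4 were measured and Cdkn1a was not analysed here. Cdkn2a, which encodes p16 and p19Arf, read 6.96, 6.84 and 6.73 with norepinephrine and 7.33, 7.58 and 7.17 with KCl. All norepinephrine arrays lay below all KCl arrays, as they did for 4.77% of all probe sets. The difference was -0.52 ± 0.19 (SE), or -0.53 without KCl replicate 1, and the unadjusted p was 0.026 by limma (adjusted p = 0.939). Cdkn1b, which encodes p27, stood at 0.75 ± 0.37, or 0.32 without KCl replicate 1, where it read 7.79 against 8.93 to 9.69 on the other arrays. Rap1gap and Cdkn1c, which encodes p57, stood at -0.022 ± 0.18 and 0.052 ± 0.18.

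Genes of the BMP pathway were read by role. Of 13 ligands, 4 were higher with norepinephrine and 9 lower, with a median of -0.091; without KCl replicate 1, 10 were higher and the median was 0.11. The largest differences by p were those of Bmp8b at -0.39 ± 0.29 (SE) and Bmp5 at -0.21 ± 0.22, and they were -0.11 and -0.0036 without that array. Bmp4 and Bmp7, ligands of the developing and adult brain, stood at 0.13 ± 0.24 and 0.051 ± 0.28. Of 10 receptors and co-receptors, 5 were higher and 5 lower, and the median was -0.028. Leaving out KCl replicate 1 gave 4 higher and a median of -0.14. The co-receptor Rgmb read 7.66, 7.61 and 7.64 with norepinephrine and 7.97, 7.88 and 7.92 with KCl. These groups did not overlap, as in 4.77% of all probe sets in that direction, and Rgmb stood at -0.29 ± 0.17. Its relative Rgma stood at 0.15 ± 0.19.

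Among the Smads, which carry the BMP signal to the nucleus, Smad1 stood at 0.19 ± 0.27 (SE), Smad5 at -0.22 ± 0.25, Smad9 at -0.067 ± 0.22 and the shared partner Smad4 at 0.11 ± 0.26. Without KCl replicate 1, Smad5 was at -0.45 (but at 0.0041 without KCl replicate 2), Smad1 and Smad4 at -0.092 and -0.19 and Smad9 at 0.11. All 4 groups overlapped. Of 9 measured secreted antagonists, 3 were higher and 6 lower, with a median of -0.045, and 4 were higher without KCl replicate 1, with a median of -0.046. Follistatin (Fst), which binds activins and some BMPs, read 6.57, 6.55 and 6.76 with norepinephrine and 7.48, 6.86 and 7.26 with KCl. Its groups did not overlap, the difference was -0.58 ± 0.21, or -0.44 without KCl replicate 1, and the unadjusted p was 0.025 by limma (adjusted p = 0.939). Twsg1, an extracellular modulator of BMP binding, stood at 0.35 ± 0.18, also with groups apart. Among all probe sets, groups were apart in 4.36% toward norepinephrine and in 4.77% toward KCl. Noggin (Nog), the antagonist of the stem cell niche, stood at -0.045 ± 0.25.

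Other genes that BMP signalling switches on were compared with the Id genes. Of 6, 1 was higher with norepinephrine and 5 lower, and the median was -0.22, where 38% of all probe sets were higher. The 1 higher, Msx1, stood at only 9.0e-05 ± 0.19 (SE). Without KCl replicate 1, 2 were higher and the median was -0.031, where 52.2% of all probe sets were higher. The inhibitory Smads Smad6 and Smad7 stood at -0.23 ± 0.22 (SE) and -0.22 ± 0.21, the bHLH factor Atoh8 at -0.27 ± 0.24 and Msx2 at -0.21 ± 0.23. The 7 intracellular inhibitors, which share Smad6, Smad7 and Bambi (-0.20 ± 0.22) with this list, had 3 higher and 4 lower, and a median of -0.14. Leaving out KCl replicate 1 gave 1 higher of 7 and a median of -0.088. Over all 73 measured genes of these 10 partner and pathway lists, each counted once, 27 were higher and 46 lower with norepinephrine, and 0 passed. The median was -0.091, against -0.075 over all probe sets, and -0.0016 against 0.0083 without KCl replicate 1. At an unadjusted p under 0.05 by limma stood 1 gene higher (Hey2) and 2 lower (Cdkn2a and Fst) with norepinephrine, which is 3 of 73 where all probe sets gave 3.43%. Of the 73 genes, 0 had a difference larger than that of Id3 in either direction, and Cdkn1b came nearest on 6 arrays.

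**Figure D4:**
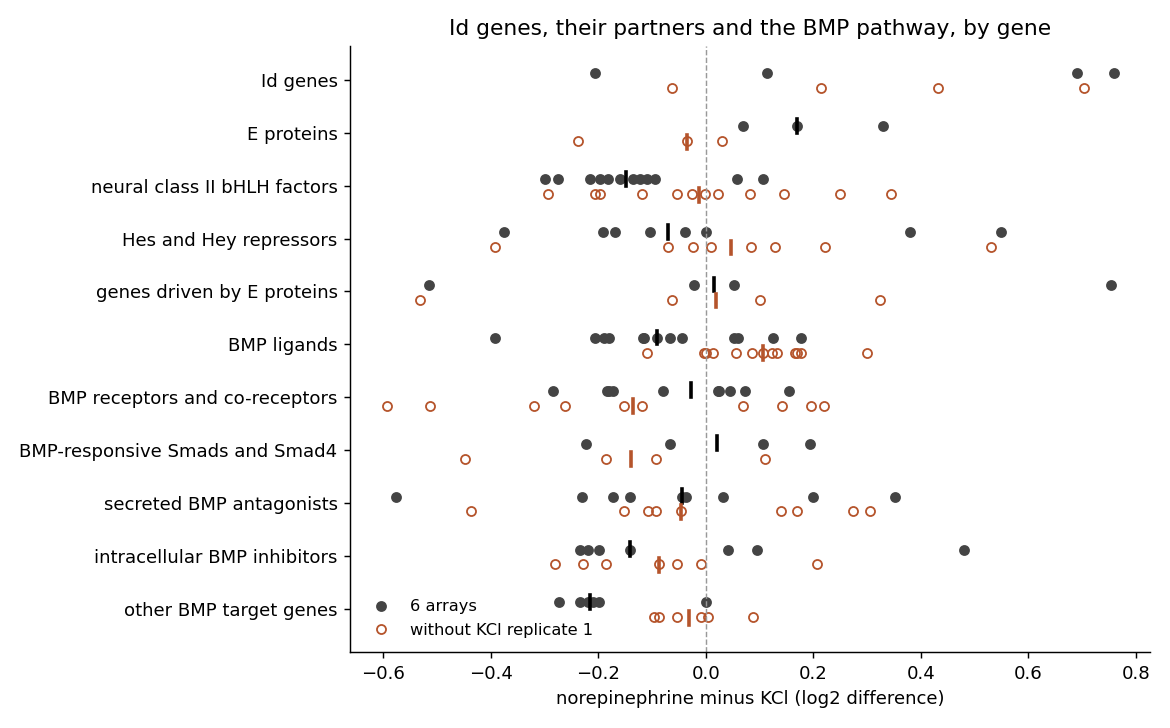
Log2 difference, norepinephrine minus KCl (horizontal axis), of each gene of the Id family and of 10 partner and pathway lists (rows), as filled points on 6 arrays and open points without KCl replicate 1, with a bar at each list's median. On 6 arrays Id2 and Id3 lie at 0.69 and 0.76 and Id1 and Id4 at 0.11 and -0.21, and list medians lie between -0.22 and 0.17.

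The samples are whole spheres, in which more cells that express a gene and more RNA per cell cannot be told apart. The deposited table has no detection call and levels of different probes are not comparable, so the presence or absence of a cell type could not be scored. Over all probe sets 38% were higher with norepinephrine, and 52.2% without KCl replicate 1. Of 9 precursor markers, 6 were higher with norepinephrine, and 7 without KCl replicate 1, with a median difference of 0.35 that shrank to 0.14. Their mean per array was 9.78 to 9.92 with norepinephrine and 9.33 to 9.76 with KCl. Among them Sox2, a core factor of neural stem cells, averaged 10.4 with norepinephrine and 10.0 with KCl. Its groups overlapped, and its difference of 0.35 ± 0.26 (SE) was 0.068 without KCl replicate 1. The surface protein Prom1 averaged 7.44 and 6.84, and its difference of 0.60 ± 0.21 was 0.66 without that array. Lower with norepinephrine on 6 arrays were Nes at -0.096 ± 0.37, Pax6 at -0.049 ± 0.21 and Fabp7 at -0.15 ± 0.18. Of 7 astrocyte markers, 6 were higher both with and without KCl replicate 1. Their medians were 0.73 and 0.41, and their array means were 9.07 to 9.28 against 8.02 to 8.55. Gfap, at 1.89 ± 0.30 (SE), was the largest of these, and S100b, at -0.29 ± 0.19, was the 1 lower. Higher at an unadjusted p under 0.05 by limma were 5 of the 7, where 2.2% of all probe sets were, while 0 passed over all genes. Gfap was among the 4 probe sets that passed without KCl replicate 1, at 2.17 (limma, adjusted p = 0.045). The part of these markers in the Id gene differences, 0.76 for Id3, 0.69 for Id2, 0.11 for Id1 and -0.21 for Id4, was not tested.

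Endothelial cells are a source of Id1 and Id3. On 6 arrays 0 of 8 endothelial markers were higher with norepinephrine, where 38% of all probe sets were, but without KCl replicate 1 there were 5 of 8, and the median turned from -0.16 to 0.059. Array means of this list were 6.17 to 6.42 with norepinephrine and 6.15 to 6.81 with KCl, and KCl replicate 1 was the highest. Microglia markers were higher in 0 of 7, or 3 of 7 without that array, with medians of -0.25 and -0.034 and array means of 5.89 to 6.04 against 5.89 to 6.69. Pericyte and fibroblast markers were higher in 2 of 7, or 6 of 7 without it, with medians of -0.14 and 0.052 and array means of 6.65 to 6.73 against 6.53 to 6.91. Neuron markers were higher in 5 of 7, or 6 of 7 without it, with medians of 0.093 and 0.28 and array means of 7.41 to 7.69 against 7.19 to 7.48. Oligodendrocyte markers were higher in 3 of 6, or 4 of 6 without it, with medians of 0.027 and 0.18 and array means of 7.31 to 7.37 against 7.05 to 7.64. At an unadjusted p under 0.05 by limma, 2 of 7 neuron, 1 of 6 oligodendrocyte and 1 of 9 precursor markers were higher with norepinephrine. The endothelial, microglia, and pericyte and fibroblast lists had 0 at that level, where 2.2% of all probe sets stood.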

How the data were processed

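RNA of 3 norepinephrine and 3 KCl samples was measured on whole-transcript arrays, 1 array each, from cDNA made with a NuGEN whole-transcript kit, per the labels' protocols. The table deposited by the authors gives 1 log2 value per probe set and array. Partek and RMA, a method of background correction, quantile normalization and probe summarization, are named by the submitters' processing notes, without versions or settings. Scanner files were not used here. The table held 34760 probe sets, of which 21640 had 1 gene symbol in the platform annotation, 1321 several and 11799 none, and 21553 of the named ones matched the RefSeq gene table by Entrez identifier with 0 symbols changed. Of several probe sets of a gene, the one with the highest mean was used. No 2 arrays were identical.

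Differences were fitted with limma 3.58.1 in R 4.3.3 (lmFit, eBayes, two-sided, Benjamini-Hochberg over 21640 probe sets), without a replicate term, and the script was tested on simulated data. The number of arrays limits the precision. Named genes were the Id genes, all E proteins, the cell cycle inhibitors with Rap1gap and the Smads. Named from every other partner or pathway list were the members at an unadjusted p under 0.05 and in any case the 2 of smallest p, and for each Id gene the 3 nearest profiles among genes above the 30th percentile of brightness, without predicted genes, clones, receptors of smell and small RNAs. Marker lists were given by counts, medians and array means. Further genes (Olig1, Olig2, Neurog1, Neurog2, Bmp4, Bmp7, Nog, Bambi, Msx1 and Msx2) and markers (Gfap, S100b, Sox2, Prom1, Nes, Pax6 and Fabp7) were named after their values were seen. The CCAAT and TGACG motifs were added after the sequences were seen. Members and lists were chosen with earlier results of these data known. Alternatives were normalization, centring, filters, moderation, array weights, the replicate block, other probe sets and leaving out each array.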

Additional observations from a re-analysis of the deposited data

How the results depend on the processing

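Id2, Id3 and Id4 kept their direction under each alternative that gave a value, 17, 17 and 16 in all. Their ranges were 0.43 to 0.96, 0.54 to 0.92 and -0.31 to -0.063. Part of this count was fixed in advance. Filters, moderation, the replicate block, the use of all rows and the mean of a gene's probe sets could not change the difference of an Id gene. Only the other alternatives could have turned a direction. Id4 lay below the median brightness and had no value under that filter. Id1 kept its direction in 16 of 17, and was -0.0018 without KCl replicate 2. Leaving out 1 array at a time, it ranged from -0.0018 to 0.21. The unequal treatment difference of Id2 against Id3 (-0.069) turned when norepinephrine replicate 1 (0.18) or KCl replicate 2 (0.068) was left out, and ranged from -0.27 to 0.18 over the arrays left out. The other 5 pairs kept their sign without each array and after a further quantile normalization, though Id2 against Id4 was 0.49 without KCl replicate 1, and Id1 against Id2 ranged from -0.96 to -0.22.

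Calls depended on array weights. With limma's default weights, whose fit did not converge and put a weight of 673 on KCl replicate 3 against 0.058 on KCl replicate 1, 5670 probe sets passed, among them 2 Id genes, Id2 at 0.74 and Id3 at 0.92. Gene-by-gene weights, added after the data were seen, put 6.76 on KCl replicate 3 and gave 1454 probe sets and 2 Id genes, Id2 at 0.73 (limma, adjusted p = 0.0067) and Id3 at 0.90 (adjusted p = 0.01). Both thus set the norepinephrine arrays almost against KCl replicate 3 alone. Leaving out 1 array, 0 to 4 probe sets passed, the 4 without KCl replicate 1, and 1 passed when the other 5 were also quantile normalized, which was added after the data were seen. No Id gene was among them. All other settings gave 0 of 4 Id genes and 0 probe sets.

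The replicate number as a block gave 0 calls, with Id3 at 0.76 (limma, adjusted p = 0.742) and 1436 probe sets at an unadjusted p under 0.05 against 743. Deviations of same-numbered arrays from their group means correlated at 0.30, 0.63 and 0.085 for replicates 1, 2 and 3. Norepinephrine replicate 3 correlated best with KCl replicate 1, at 0.31. With 3 arrays per group, these values do not settle whether same-numbered samples were paired. Of 340 values over the partner and pathway lists under these settings, 50 moved by more than the spread between arrays or by over 1.5 times in a count, and the cause was not tested. Part of the 340 could not move, since moderation, the replicate block and the use of all rows leave every gene's difference unchanged.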
